A study of Homo sapiens with 13 samples.

Results

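The forkhead genes are described here in PANC1 cells, an established human line derived from a pancreatic ductal carcinoma. Members were the RefSeq coding genes on chromosomes 1 to 22 and X whose symbol is FOX followed by 1 letter and a number, from FOXA1 to FOXS1. This gave 45 genes of 19974 coding genes. CUT&RUN, which cuts and sequences DNA next to an antibody-bound protein, was run against 6 targets in cells stably expressing BRG1, the ATPase of a SWI/SNF chromatin remodelling complex. The targets were the histone marks H3K4me3, H3K27ac and H3K4me1, and the proteins BRG1, NRF2 (a transcription factor of the oxidative stress response) and SMARCC1 (another SWI/SNF subunit), with 2 replicates each. All 12 libraries came from this 1 line in 1 condition, so BRG1-expressing cells were not set against cells with their usual BRG1 level. The labels give no clone number or expression construct, and do not say whether replicates were separate cultures. An IgG control library was not analysed here.

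Forkhead factors bind DNA through a winged helix domain that recognises a short AT-rich core. FOXA factors open closed chromatin in endoderm-derived tissues such as pancreas and liver, FOXO factors are shut out of the nucleus when insulin and AKT signalling are high, and FOXM1 drives genes of cell division. H3K4me3 marks active or poised promoters, H3K27ac marks active promoters and enhancers, and H3K4me1 lies mainly around enhancers and at the flanks of promoters.

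The measured value is the authors' fold enrichment of a listed peak, called in each library separately. Lists held 17752 to 32499 peaks for H3K4me3 and H3K27ac, 34234 and 37283 for H3K4me1, and 572 to 6610 for the 3 proteins. The files give no read depth, so a gene without a listed peak may lack the mark or may lie in a library too shallow to show it. Peaks were listed down to a −log10 p of about 2.01, and not every peak passed a q-value threshold: 92.1% and 92.8% of H3K4me3 peaks, 18.9% and 21.9% of H3K4me1 peaks and 0 SMARCC1 peaks had a −log10 q of at least 1.3. Of 6 ductal and epithelial marker genes, 4 (CDH1, KRT8, KRT18 and KRT19) had both H3K4me3 and H3K27ac in their windows in both replicates, while the 3 acinar, 2 islet, 3 leukocyte and 2 endothelial markers carried neither mark at the promoter. The 3 mesenchymal markers VIM, ZEB1 and CDH2 all had promoter H3K4me3. Peak lists hold no expression level, so the BRG1 level itself was not checked.

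Listed peaks at forkhead genes ranged from strong to weak to none. In the gene span plus 10 kb on each side, 29 of 45 forkhead genes (64.4%) had an H3K4me3 peak in both replicates, against 67.4% of all coding genes. H3K27ac was present in both replicates at 24 forkhead genes (53.3%), against 57.6%, and H3K4me1 at 16 (35.6%), against 34.8%. BRG1 had a peak in both replicates at 2 forkhead genes (4.44%), against 6.13% of all coding genes. For NRF2 the count was 1 (2.22%), against 1.14%, and for SMARCC1 it was 0, against 1.02%. All of these shares lie close to those of coding genes at large. In this window no member had H3K4me3 in 1 replicate without the other. For H3K27ac 2 members did (FOXD3 and FOXP1), and for H3K4me1 6 did (FOXB1, FOXD3, FOXF2, FOXI1, FOXL2 and FOXO6). Within 1000 bp of the start, H3K4me3 was in 1 replicate alone at FOXA3 and FOXN3, and H3K27ac at FOXN2. Such counts were not made over all coding genes.

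**Figure D1:**
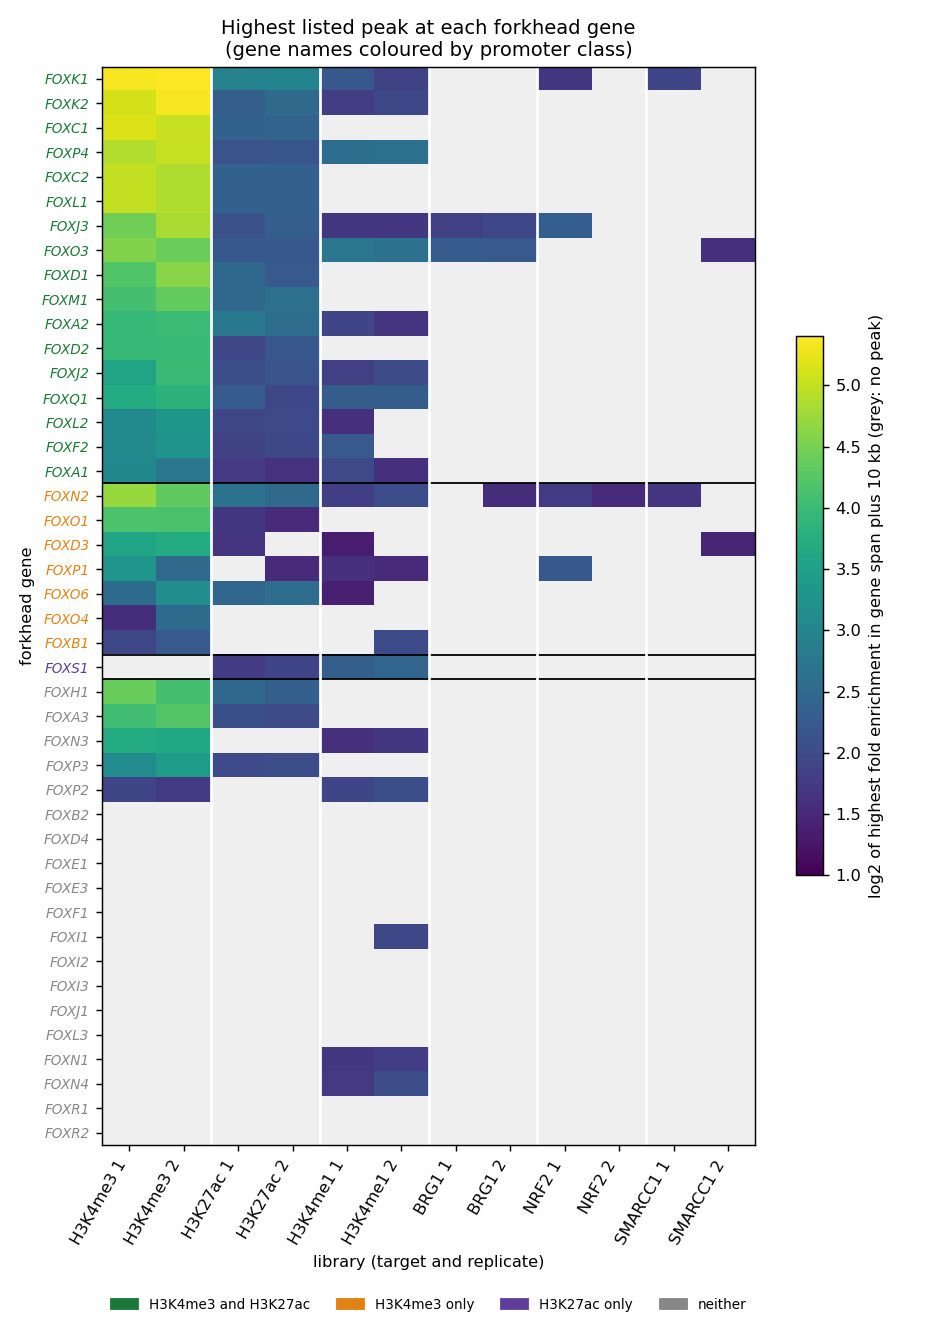
Highest fold enrichment of any listed peak in the gene span plus 10 kb, on a log2 colour scale, for 44 of the 45 forkhead genes (rows, grouped and coloured by promoter class, and ordered by mean H3K4me3 within a class) in 12 libraries (columns). Grey cells have no peak; 11 of the genes shown are grey in every library, and the protein columns are grey for all but 6 genes.

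Forkhead genes are short, with a median span of 4930 bp against 24170.5 bp for all coding genes, and the window grows with the gene. Among genes under 10 kb, 15 of 29 forkhead genes (51.7%) had H3K4me3 in both replicates, against 52.8% of coding genes of that length, and 13 (44.8%) had H3K27ac, against 43.9%. H3K4me1 was found at 4 of these 29 (13.8%), against 17.3%. Among genes of 10 kb or more, 14 of 16 forkhead genes (87.5%) had H3K4me3, against 73.1%, and 12 (75%) had H3K4me1, against 41.7%. These 16 forkhead genes were also longer than their counterparts, with a median of 75254 bp against 42122.5 bp. The part of gene length in the H3K4me1 difference was not tested, and the family's count of 16 genes with H3K4me1 fell to 4 with a −log10 q of at least 1.3 or a −log10 p of at least 5.

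**Figure D2:**
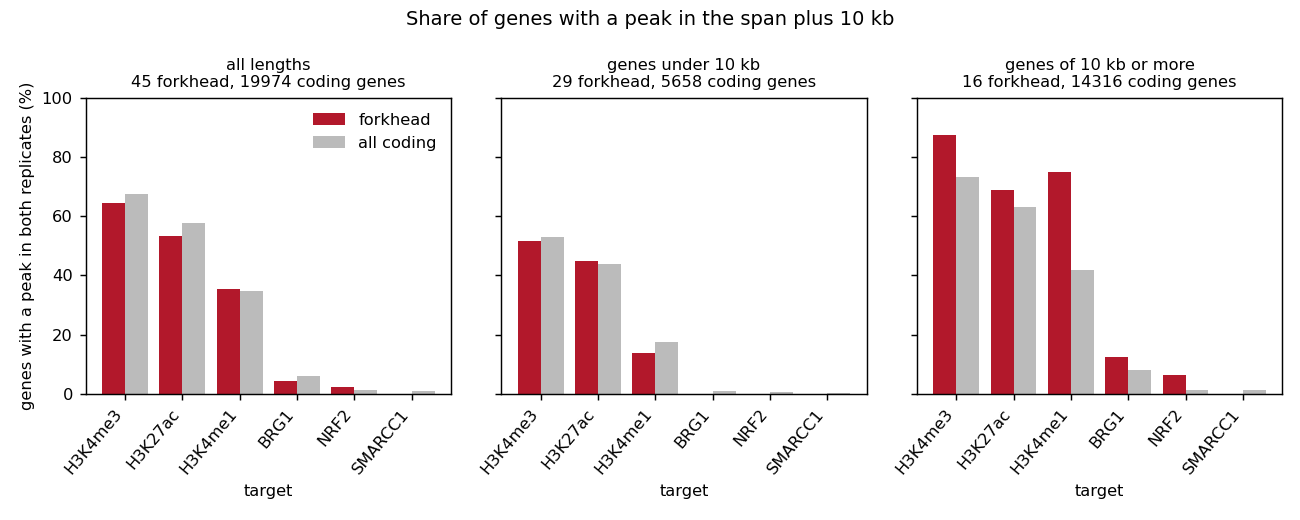
Percentage of genes with a peak in both replicates in the span plus 10 kb, for forkhead genes (red, left bar) and all coding genes (grey, right bar), at all lengths, under 10 kb and at 10 kb or more. The widest gap is for H3K4me1 in the longer genes, where 75% of forkhead genes and 41.7% of coding genes had a peak; for H3K4me3 there the shares were 87.5% and 73.1%.

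Promoters were then sorted by the 2 marks of active promoters, counting a mark where a peak of each replicate lay within 1000 bp of the gene's start. RefSeq promoter entries gave the start of 34 members; for the other 11 (among them FOXA2, FOXC2, FOXE3, FOXF1, FOXH1, FOXJ1, FOXL1, FOXM1, FOXN2 and FOXS1) either end of the span counted. Both marks were present at 17 forkhead promoters (37.8%), against 42.5% of all coding promoters: FOXA1, FOXA2, FOXC1, FOXC2, FOXD1, FOXD2, FOXF2, FOXJ2, FOXJ3, FOXK1, FOXK2, FOXL1, FOXL2, FOXM1, FOXO3, FOXP4 and FOXQ1. H3K4me3 without H3K27ac was present at 7 (15.6%), against 15.1%: FOXB1, FOXD3, FOXN2, FOXO1, FOXO4, FOXO6 and FOXP1. Only FOXS1 had H3K27ac without H3K4me3 (2.22%, against 0.916%). The other 20 promoters (44.4%, against 41.5%) had neither mark in both replicates. The 4 shares lie near the background. Promoters with both marks had a median H3K4me3 fold enrichment of 18.8 in the forkhead family, against 18.4 in all coding genes of that class, and a median H3K27ac fold enrichment of 4.45, against 4.44.

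The base sequence of 4 promoters shows the range across these classes. They were picked after their values were seen: FOXK1 had the highest H3K4me3 of the family, FOXO1 had strong H3K4me3 without H3K27ac at its start, and FOXI3 and FOXR2 had no peak in any library. Each is the RefSeq promoter entry on GRCh38.p14, read 5′ to 3′ on the gene's strand, with 250 bases before the start and 50 after it. Capitals mark CpG dinucleotides. FOXK1 is at chr7:4682045-4682344 on the + strand, FOXO1 at chr13:40666592-40666891 on the - strand, FOXI3 at chr2:88452644-88452943 on the - strand and FOXR2 at chrX:55623150-55623449 on the + strand.
FOXK1: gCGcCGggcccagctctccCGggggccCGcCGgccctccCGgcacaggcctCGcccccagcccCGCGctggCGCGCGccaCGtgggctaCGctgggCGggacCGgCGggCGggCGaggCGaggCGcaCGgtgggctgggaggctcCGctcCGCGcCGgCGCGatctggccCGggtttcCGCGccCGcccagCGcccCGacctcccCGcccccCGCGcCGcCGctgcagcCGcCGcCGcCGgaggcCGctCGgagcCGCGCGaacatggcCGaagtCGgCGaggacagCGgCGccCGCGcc
FOXO1: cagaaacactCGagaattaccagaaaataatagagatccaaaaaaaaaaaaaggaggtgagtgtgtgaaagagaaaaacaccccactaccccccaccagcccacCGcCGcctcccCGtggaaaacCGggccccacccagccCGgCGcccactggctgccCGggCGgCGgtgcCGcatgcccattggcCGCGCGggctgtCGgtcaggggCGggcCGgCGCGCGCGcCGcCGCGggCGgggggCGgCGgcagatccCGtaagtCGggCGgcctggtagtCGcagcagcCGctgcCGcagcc
FOXI3: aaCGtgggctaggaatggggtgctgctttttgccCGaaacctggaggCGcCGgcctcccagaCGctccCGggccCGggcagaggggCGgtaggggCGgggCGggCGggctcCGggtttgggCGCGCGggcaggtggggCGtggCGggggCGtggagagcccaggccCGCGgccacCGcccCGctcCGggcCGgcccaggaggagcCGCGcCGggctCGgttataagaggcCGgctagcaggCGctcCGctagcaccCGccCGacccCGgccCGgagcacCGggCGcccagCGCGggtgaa
FOXR2: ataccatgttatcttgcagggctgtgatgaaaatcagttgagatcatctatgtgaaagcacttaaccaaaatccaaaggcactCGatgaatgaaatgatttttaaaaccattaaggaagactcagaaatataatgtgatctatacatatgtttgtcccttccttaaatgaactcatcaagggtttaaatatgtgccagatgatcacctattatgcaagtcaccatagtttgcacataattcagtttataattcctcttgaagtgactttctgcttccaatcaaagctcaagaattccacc
FOXI3 is as dense in CpG as FOXO1, with 39 against 33 dinucleotides, although it carried no listed peak. FOXR2 has 1.

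A CpG ratio (observed over expected from the base composition) of 1 means no depletion. In the 34 promoters with a RefSeq sequence, the median ratio was 0.957 for the 13 forkhead promoters with both marks, against 0.870 for coding promoters of that class. It was 0.916 for the 6 with H3K4me3 only, against 0.833. For the 15 with neither mark it was 0.731, against 0.326 over 6153 unmarked coding promoters. A ratio of at least 0.6 was reached by 10 of these 15 forkhead promoters (66.7%), against 28.8% of unmarked coding promoters. The 10 included FOXN3 at 1.02, FOXL3 at 0.920, FOXR1 at 0.892, FOXI3 at 0.869 and FOXE1, a thyroid development factor, at 0.746. FOXP2, read at its listed start, had 0.0947 and FOXR2 had 0.110. Of the 20 unmarked members, 5 have no RefSeq sequence here, and 2 of the 10 (FOXN3 and FOXA3) had a promoter H3K4me3 peak in 1 replicate. Marks of repressed chromatin and DNA methylation were not analysed here, and the difference was not tested.

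**Figure D3:**
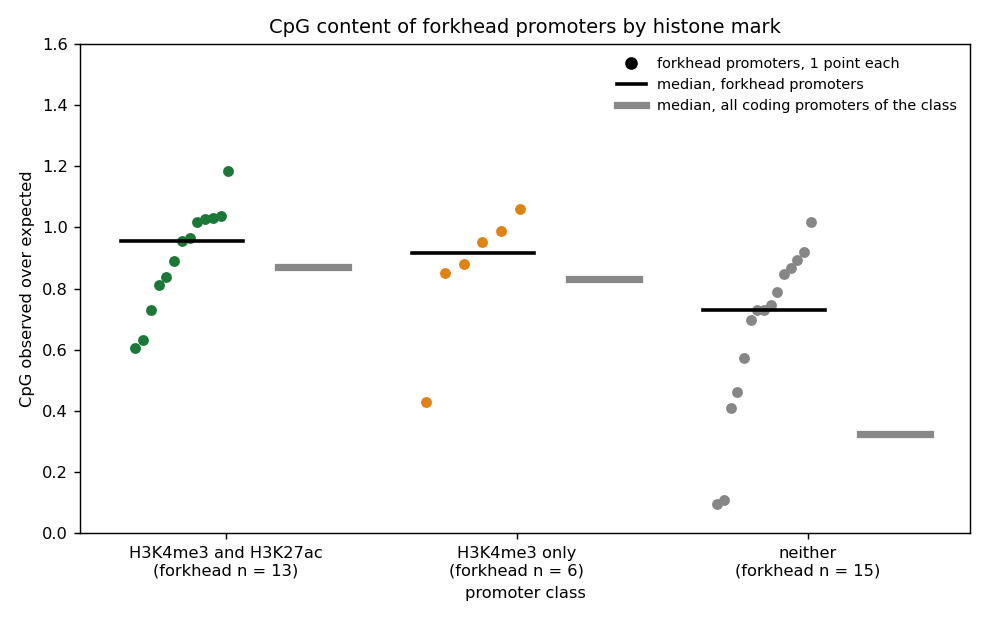
CpG observed over expected in the 300 base RefSeq promoter for 34 forkhead promoters (1 point each, black line at the median), by promoter class, beside the median of all coding promoters of that class (grey bar, right). The forkhead and coding medians lie near each other for marked promoters and at 0.731 and 0.326 for promoters with neither mark.

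The FOXA genes, which encode the pioneer factors of endoderm, differed from each other. FOXA2 had H3K4me3 at 15.4-fold and 16.2-fold in replicates 1 and 2 (15.8 ± 0.51, SD, n = 2) in a peak inside the gene. H3K27ac covered FOXA2 and its flanks in 6 and 5 peaks, the highest at 6.78-fold and 6.04-fold, at different places in the 2 replicates. Its widest promoter H3K27ac peak averaged 2324.5 bp, which 75 of 8675 coding promoters with the mark exceeded. FOXA2 has no listed start, this peak lies inside the span, and H3K27ac no longer counted at its promoter with a 500 bp limit or an overlap of at least 200 bp. FOXA1 was marked more weakly, with promoter H3K4me3 at 8.33-fold and 6.68-fold (7.5 ± 1.2) and H3K27ac at 3.33-fold and 3.10-fold (3.22 ± 0.16). The FOXA1 H3K27ac peaks lay nearer to the neighbouring gene TTC6 than to FOXA1. FOXA3 had no promoter mark in both replicates. In replicate 1 alone an H3K4me3 peak of 4.03-fold ended 726 bp before the FOXA3 start, and the 16.5-fold and 18.6-fold H3K4me3 peaks in its window lay nearer to SYMPK, with summits 225 and 184 bp from the SYMPK start. The order of promoter H3K4me3 was thus FOXA2, FOXA1 and FOXA3, without overlap between the replicate values of FOXA2 and FOXA1.

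Of 10 genes that work with FOXA factors in pancreas and gut endoderm, 2 (PDX1 and SOX9) had both promoter marks, 3 (GATA6, ONECUT1 and ONECUT2) had H3K4me3 only, and 5 (GATA4, HNF4A and KLF5 among them) had neither. These calls are for the promoter: the GATA4 window held both marks in both replicates, and the KLF5 window held H3K4me3 in both without H3K27ac. HNF4A had no H3K4me3 or H3K27ac peak in its window. In their windows, 7 of the 10 genes (70%) had H3K4me3 in both replicates, against 67.4% of all coding genes. H3K27ac was there at 3 (30%), against 57.6%. The shares of 20.0% with both marks and 50% with neither compare with 42.5% and 41.5% of all coding genes.

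FOXC1 and FOXC2 had H3K4me3 peaks that were both high and wide. FOXC1, which acts in eye and head mesenchyme, had promoter H3K4me3 at 35.9-fold and 32.8-fold (34.4 ± 2.2, SD, n = 2) in peaks of 4600 and 4531 bp. FOXC2, a factor of lymphatic development, had 31.8-fold and 29.2-fold (30.5 ± 1.8) in peaks of 5173 and 5258 bp. Only 127 and 58 of 11501 coding promoters with H3K4me3 had wider mean peaks than FOXC1 and FOXC2. H3K27ac was moderate by comparison, at 5.15-fold and 4.0-fold for the FOXC1 promoter and at 4.52-fold and 4.89-fold for FOXC2. The FOXC2 values came from peaks at different places. The highest overlapping peaks of the other replicate had 3.09-fold and 3.81-fold. The FOXC2 window held 11 H3K27ac peaks in each replicate, of which 5 in replicate 1 and 4 in replicate 2 lay nearer to FOXL1, among them the highest at 5.19-fold and 5.15-fold.

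FOXC2 and FOXL1, a factor of the gut mesenchyme, stand next to each other on chromosome 16 and their windows share 11180 bp. The FOXL1 window therefore takes in the FOXC2 peaks. At its own promoter the highest H3K4me3 was 4.86-fold in replicate 1 and 9.18-fold in replicate 2, in peaks at different places. The replicate 2 peak that overlapped the 4.86-fold peak had 5.52-fold. The replicate 1 peak that overlapped the 9.18-fold peak had 4.36-fold and ended outside the 1000 bp limit. FOXL1 promoter H3K27ac was at 5.19-fold and 5.15-fold (5.17 ± 0.026). H3K27ac peaks ran through the space between both genes and into FOXL1, 12 and 13 peaks in its window in replicates 1 and 2. FOXF1, a factor of lung and gut mesenchyme in the same cluster at chr16:86510527-86515422, had no peak of any target in any library. The stretch between the FOXF1 and FOXC2 windows was not examined, so where the marked part of the cluster ended was not determined.

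The other cluster, on chromosome 6, holds FOXQ1, FOXF2 and FOXC1, and all 3 promoters had both marks. FOXQ1, linked to mucin production in mouse stomach and to the epithelial-mesenchymal transition in carcinoma, had H3K4me3 at 13.0-fold and 14.3-fold (13.7 ± 0.92) in peaks of 3336 and 3372 bp. FOXF2 had 8.53-fold and 9.64-fold (9.09 ± 0.78) in peaks of 3463 and 3361 bp. H3K27ac at these promoters was low, at 2.78-fold and 2.63-fold for FOXQ1 and 3.63-fold and 3.90-fold for FOXF2. The FOXQ1 peaks of the 2 replicates did not overlap each other and had −log10 q of 0.479 and 0.0522. Those 2 FOXF2 peaks did not overlap each other either. A replicate 1 peak of 2.66-fold overlapped the 3.90-fold peak, and no replicate 2 peak overlapped the 3.63-fold peak. With a 500 bp limit or a −log10 p of at least 5, both FOXQ1 and FOXF2 counted as H3K4me3 without H3K27ac, as did FOXF2 with an overlap of at least 200 bp and FOXQ1 under the q threshold of 1.3. FOXQ1 also had H3K4me1 at 4.94-fold and 4.92-fold (4.93 ± 0.014), in a peak with its midpoint 9607 and 9609 bp beyond the gene that lies nearer to the coding locus LOC124905366.

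The mean widest promoter H3K4me3 peak exceeded 2969.5 bp, the 90th percentile of coding promoters with the mark, at 7 of 24 forkhead promoters (29.2%): FOXC1, FOXC2, FOXD1, FOXF2, FOXO1, FOXO3 and FOXQ1. The median width was 2261 bp in the 24 forkhead promoters, against 1643 bp in 11501 coding promoters. By fold enrichment, 5 of the 24 (20.8%) were above the 90th percentile of coding promoters with H3K4me3: FOXC1, FOXC2, FOXK1, FOXK2 and FOXP4. For H3K27ac, 3 of 18 forkhead promoters (16.7%) exceeded the 90th percentile of 1283.1 bp: FOXA2, FOXC1 and FOXK1. In H3K27ac fold enrichment, 0 of the 18 were above the 90th percentile of coding promoters with that mark. Widths depend on where the authors' caller merged neighbouring stretches, as at FOXJ3, where the widest peak was 1673 bp in replicate 1 and 2795 bp in replicate 2.

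**Figure D4:**
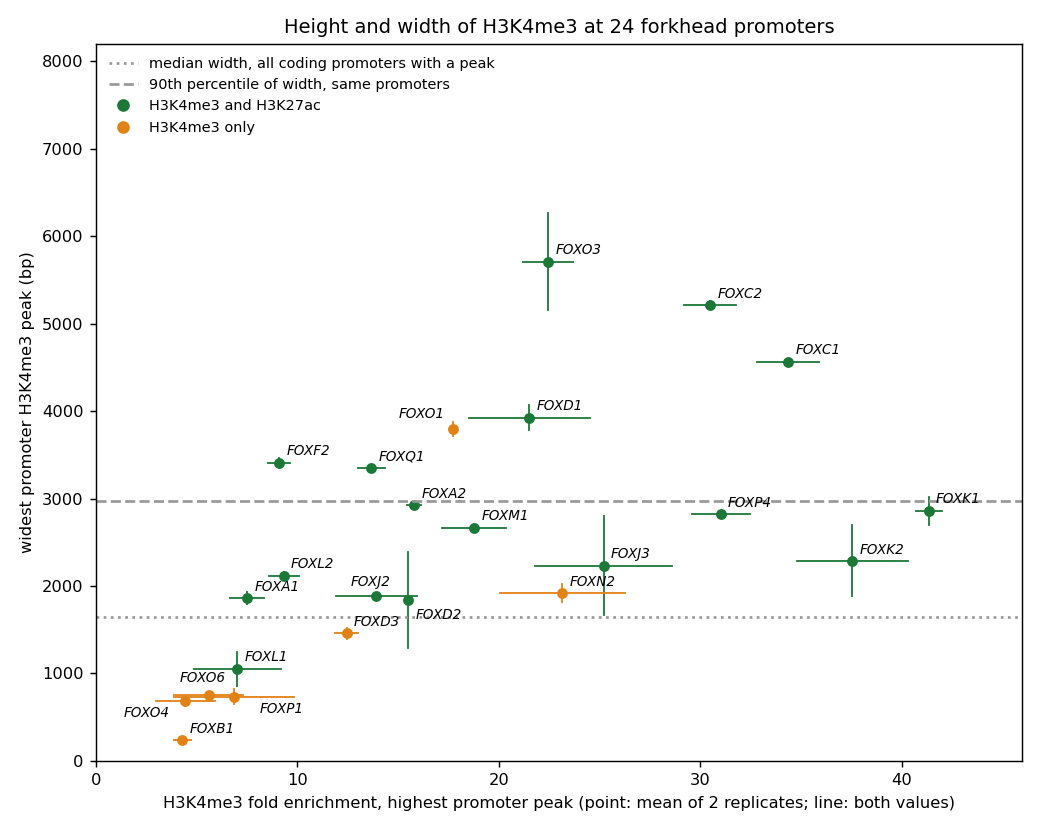
Fold enrichment (x axis) and width in bp (y axis) of promoter H3K4me3 at the 24 forkhead promoters that have it in both replicates; points are means of 2 replicates and lines join both replicate values. FOXK1 and FOXK2 are the highest, at 41.3-fold and 37.6-fold, and FOXO3, FOXC2 and FOXC1 the widest; dotted and dashed lines give the median (1643 bp) and 90th percentile (2969.5 bp) over all coding promoters with the mark.

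Of the FOXD genes, FOXD1, FOXD2 and FOXD3 had promoter H3K4me3. FOXD1, a kidney stroma factor, had H3K4me3 at 18.5-fold and 24.5-fold (21.5 ± 4.3) in peaks of 4067 and 3784 bp, with H3K27ac at 5.59-fold and 4.71-fold (5.15 ± 0.62). FOXD2 had H3K4me3 at 15.4-fold and 15.5-fold and H3K27ac at 3.85-fold and 4.58-fold. FOXD3, a factor of neural crest and pluripotent cells, had H3K4me3 at 11.9-fold and 13.0-fold (12.4 ± 0.81) and no H3K27ac peak at its promoter. An H3K27ac peak of 3.20-fold was listed in the FOXD3 window in replicate 1 only. FOXD4 had no peak at all; it has near-identical copies with longer symbols, so reads from it may not map uniquely and a missing peak there is uncertain. FOXL2, the ovarian factor, was marked at its promoter by H3K4me3 (8.59-fold and 10.1-fold) and H3K27ac (3.81-fold and 3.94-fold), in a window shared with FOXL2NB. These H3K27ac peaks lay nearer to FOXL2NB, with summits 292 and 126 bp from the FOXL2NB start. The H3K27ac peaks inside FOXL2 reached 3.16-fold and 2.83-fold. FOXB1, of the developing brain, had promoter H3K4me3 at 3.87-fold and 4.71-fold (the lowest mean of the 24 promoters with the mark, although FOXO4 was lower in replicate 1) in peaks of 200 and 266 bp.

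The highest H3K4me3 of the family was at FOXK1 and FOXK2, widely expressed genes whose products repress autophagy genes. They had 40.7-fold and 42-fold (41.3 ± 0.92, SD, n = 2) and 34.8-fold and 40.3-fold (37.6 ± 3.9). Only 143 of 11501 marked coding promoters were higher than FOXK1 in mean fold enrichment, and 308 were higher than FOXK2. The highest promoter H3K27ac at FOXK1 was 4.35-fold and 3.90-fold, in peaks at different places. The replicate 2 peak that overlapped the 4.35-fold peak had 3.64-fold. A peak inside the gene, with summits 43298 and 43296 bp from the start, reached 7.77-fold and 7.96-fold (7.87 ± 0.14), the highest H3K27ac of the family. This internal site also carried H3K4me3 at 8.04-fold and 6.07-fold, H3K4me1 in both replicates and a SMARCC1 peak in replicate 1. FOXK2 had its highest H3K27ac at the promoter, at 5.03-fold and 5.72-fold.

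FOXJ3 had promoter H3K4me3 at 21.8-fold and 28.6-fold (25.2 ± 4.8) and H3K27ac at 4.27-fold and 5.04-fold. FOXJ2 had H3K4me3 at 11.9-fold and 15.9-fold and H3K27ac at 2.85-fold and 3.68-fold at the promoter. FOXN2 had H3K4me3 at 26.2-fold and 20.1-fold (23.2 ± 4.4) and counted as lacking H3K27ac, with a peak within 1000 bp in replicate 2 alone at 3.14-fold. The FOXN2 window held H3K27ac peaks of up to 6.29-fold and 5.73-fold inside the gene. In both replicates these lay within the stretch covered by the promoter H3K4me3 peak, beyond the 1000 bp limit. The FOXN2 promoter counted as having both marks at 2500 bp and neither at 500 bp or with an overlap of at least 200 bp. FOXN3 was blank at its listed start apart from an H3K4me3 peak of 3.57-fold in replicate 2. H3K4me3 at FOXN3 was instead found inside the gene, 202680 and 202679 bp from that start, at 13.0-fold and 12.5-fold (12.7 ± 0.40).

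FOXM1, the mitotic regulator, had H3K4me3 at 17.2-fold and 20.4-fold (18.8 ± 2.3) and H3K27ac at 5.58-fold and 6.15-fold (5.86 ± 0.41). The spans of FOXM1 and RHNO1 overlap at this end, and the midpoint of the H3K4me3 peak lay in both genes in replicate 1 and in RHNO1 in replicate 2, so the marks cannot be assigned to FOXM1 alone. Of 12 mitotic genes that FOXM1 is known to control, among them CCNB1, PLK1 and AURKA, 11 had both promoter marks (91.7%, against 42.5% of coding genes), and AURKB had H3K4me3 with H3K27ac in 1 replicate of its window. None of the 12 had a BRG1 or NRF2 peak in both replicates, against 6.13% and 1.14% of all coding genes. CCNB1 and CENPF each had BRG1 in 1 replicate. CCNB1 had a SMARCC1 peak in both replicates (8.33% of the 12, against 1.02%).

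The FOXO genes, whose products act in stress resistance and are restrained by AKT, separated into strongly and weakly marked members. FOXO3 had promoter H3K4me3 at 23.7-fold and 21.2-fold (22.4 ± 1.7, SD, n = 2) in peaks of 5157 and 6264 bp, the widest of the family, and 34 of 11501 coding promoters exceeded its mean width. FOXO1 had H3K4me3 at 17.9-fold and 17.5-fold (17.7 ± 0.28) in peaks of 3712 and 3872 bp. H3K27ac at FOXO1 lay inside the same H3K4me3 peak, with its summit 2359 and 2025 bp from the start, at 3.27-fold and 2.88-fold, beyond the 1000 bp limit. FOXO6 and FOXO4 were low: FOXO6 had promoter H3K4me3 at 3.90-fold and 7.29-fold, and FOXO4 at 2.98-fold and 5.90-fold. The summits of these FOXO4 peaks differed in place. They were at −219 bp from the start in replicate 1 and 224 bp in replicate 2, in peaks of 380 and 724 bp. The 5.61-fold and 5.94-fold H3K27ac of FOXO6 stood near the far end of the gene, and FOXO4 had no H3K27ac peak.

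FOXO4 was also the only one of 34 forkhead promoters with the forkhead core TGTTTAC on either strand (2.94%, against 2.62% of 15812 coding promoters). Its RefSeq promoter at chrX:71095601-71095900 on the + strand is printed with that core, here as GTAAACA on the opposite strand, and the AP-1 motif TGANTCA in capitals.
FOXO4: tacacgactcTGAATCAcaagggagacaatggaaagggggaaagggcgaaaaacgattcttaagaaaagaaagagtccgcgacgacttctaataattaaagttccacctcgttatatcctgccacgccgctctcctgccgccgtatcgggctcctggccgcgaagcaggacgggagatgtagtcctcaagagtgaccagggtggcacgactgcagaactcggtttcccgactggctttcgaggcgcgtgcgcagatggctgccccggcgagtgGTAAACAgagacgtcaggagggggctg
The AP-1 motif was in FOXO4 and FOXA3 (5.88%, against 5.76%). The core TGTTTGC was in FOXA1 and FOXD4 (5.88%, against 3.16%), and the NRF2-type core TGACNNNGC in FOXD3 and FOXN4 (5.88%, against 14.3%), both strands searched. A letter match is no evidence of a bound site, and none of these promoters had an NRF2 peak.

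Of 16 genes upstream of FOXO factors, 12 (75%, against 42.5% of all coding genes) had both promoter marks, including AKT1, AKT2 and PIK3CA, 2 (PDPK1 among them) had H3K4me3 only, and INSR and USP7 had neither at the listed start, although the USP7 window held both marks in both replicates. Of 14 known FOXO targets, 7 (50%, against 42.5%) had both marks, including CDKN1B, BCL2L11 and SOD2. A further 5 (35.7%, against 15.1% of coding genes) had H3K4me3 without H3K27ac: CCNG2, IRS2, KLF6, PIK3IP1 and TXNIP. TNFSF10 had H3K27ac only, and SESN3 had neither. BRG1 had peaks in both replicates at 2 of these 14 targets (14.3%, against 6.13% of all coding genes), CDKN1B and GADD45A. Among the 16 upstream genes, BRG1 had them at PIK3CB, NRF2 at PIK3CA and SMARCC1 at AKT2 (6.25% each, against 6.13%, 1.14% and 1.02%).

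FOXO3 also stood out for H3K4me1. The gene spans 124950 bp at chr6:108559825-108684774, and its window held 22 and 24 H3K4me1 peaks with a highest value of 6.60-fold and 6.23-fold (6.41 ± 0.26), the highest of the family. The mean of 23 peaks was exceeded by 102 of 19974 coding genes. Per 100 kb of window this was 15.9 peaks, against a median of 0.825 in 3351 coding genes of 100 kb or more. The other forkhead genes of that length had few: FOXJ3 had 1.39 H3K4me1 peaks per 100 kb, FOXN3 0.518, FOXP2 0.398, FOXP1 0.308 and FOXO1 had 0. H3K27ac peaks lay in 7 and 6 places in the FOXO3 window.

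**Figure D5:**
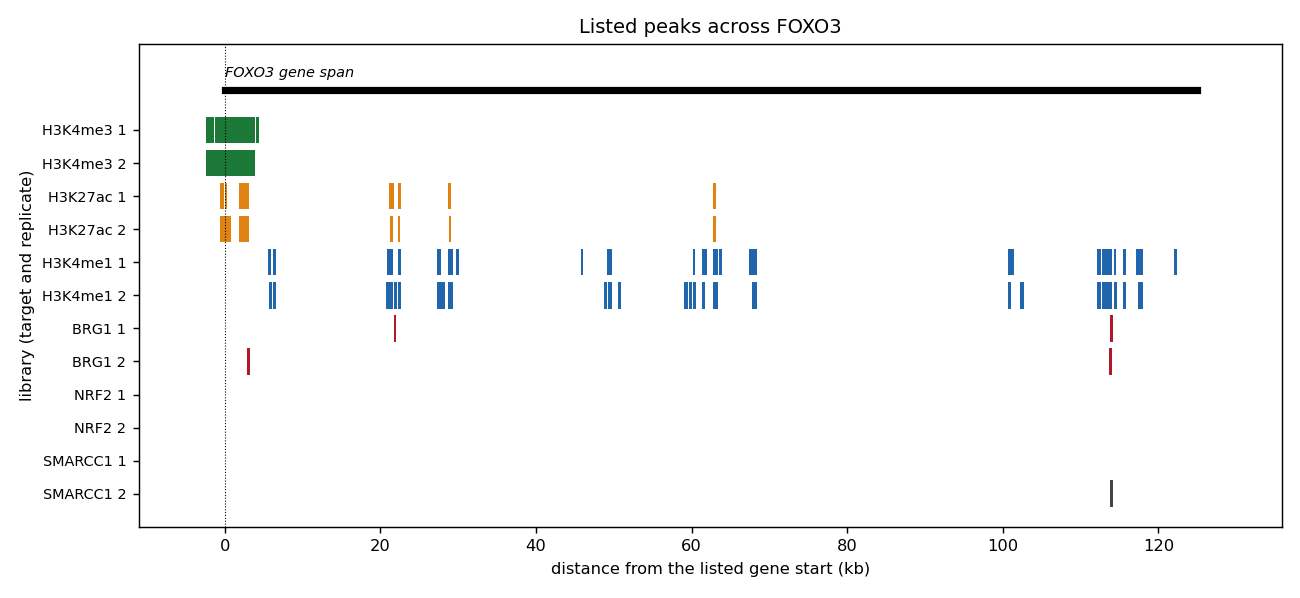
Listed peaks across FOXO3 in the 12 libraries (rows), by distance from the listed gene start in kb (x axis); bars show peak positions, drawn at least 0.35 kb wide. H3K4me3 covers the start, 22 and 24 H3K4me1 peaks run through the gene, and the BRG1 peaks of both replicates meet a SMARCC1 peak of replicate 2 about 114 kb from the start.

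The other leading H3K4me1 sites were at FOXP4, FOXS1 and FOXQ1. FOXP4 had 5.99-fold and 6.14-fold (6.06 ± 0.11) in peaks with summits 31999 and 32087 bp inside the gene, which also carried H3K27ac, and a promoter with H3K4me3 at 29.6-fold and 32.5-fold (31.0 ± 2.0) and H3K27ac at 4.37-fold and 4.54-fold. FOXS1 had 7 H3K4me1 peaks in each replicate at up to 5.01-fold and 5.42-fold (5.22 ± 0.29), and 7 and 6 H3K27ac peaks at up to 3.42-fold and 3.76-fold, but no H3K4me3. Every H3K27ac peak of FOXS1 was outside the span, the nearest with midpoints at 1098 and 709 bp, while H3K4me1 peaks of both replicates reached into it, in a window that also holds MYLK2 and DUSP15. FOXK1 had 9 and 6 H3K4me1 peaks at up to 4.62-fold and 3.66-fold (4.14 ± 0.68).

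The remaining FOXP genes were weakly marked. FOXP1, which spans 629271 bp and is known for roles in lymphocytes, heart and brain, had promoter H3K4me3 at 9.84-fold and 3.89-fold (6.87 ± 4.2), so the value differed widely between its 2 replicates. An internal FOXP1 site 518661 bp from the start in both replicates had 6.30-fold and 5.74-fold. FOXP2, known for speech and motor circuits, had 1 H3K4me3 peak per replicate in its window at 3.79-fold and 3.36-fold, at the lower end of the span and not at the listed start. FOXP3, the factor of regulatory T cells, had no promoter mark; the 8.67-fold and 10.7-fold H3K4me3 in its window lay nearer to PPP1R3F, with summits 483 and 435 bp from the PPP1R3F start. The same was true of FOXH1, a partner of SMAD proteins in Nodal signalling, with 20.7-fold and 17.1-fold H3K4me3 nearest to PPP1R16A in a window that holds 4 other coding genes.

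No peak of any target was listed at 12 members, among them FOXB2, FOXD4, FOXE1, FOXE3, FOXF1, FOXI2, FOXI3, FOXJ1, FOXL3, FOXR1 and FOXR2. They include genes of thyroid (FOXE1), lens (FOXE3) and motile cilia (FOXJ1). Coding genes without a peak of any target were not counted, so these 12 of 45 members have no background share beside them. FOXI1, FOXN1 and FOXN4 had H3K4me1 alone: FOXN1, of the thymic epithelium, at 3.28-fold and 3.47-fold, FOXN4, of the retina, at 3.33-fold and 4.12-fold, and FOXI1 at 3.87-fold in replicate 2 only. Both promoter marks were found at 17 of 45 FOX genes (37.8%), 5 of 18 KLF genes (27.8%), 7 of 19 SOX genes (36.8%), 19 of 39 HOX genes (48.7%) and 42.5% of all coding genes. H3K4me3 alone was found at 15.6% of FOX, 33.3% of KLF, 10.5% of SOX, 10.3% of HOX and 15.1% of all coding genes. Neither mark was found at 44.4% of FOX, 38.9% of KLF, 52.6% of SOX, 41.0% of HOX and 41.5% of all coding genes. Differences between the families were not tested.

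BRG1, NRF2 and SMARCC1 peaks at forkhead genes numbered 19 in all libraries together, at 6 genes, and 15 of them were inside the gene span. Peaks in both replicates were rare in all coding genes too. For BRG1 the shares were 4.44% of forkhead and 6.13% of coding genes. For NRF2 they were 2.22% and 1.14%, and for SMARCC1 0 and 1.02%. Coding genes with a peak of any of these 3 proteins were not counted. Only 3 of the 19 had a −log10 q of at least 1.3. BRG1 peaks of both replicates met at 1 site in FOXO3, chr6:108673628-108673854 in replicate 1 and chr6:108673536-108673873 in replicate 2, with 4.88-fold and 4.66-fold enrichment (4.77 ± 0.15, SD, n = 2). This site lay 113931 and 113967 bp from the start, inside H3K4me1 peaks of both replicates and outside H3K27ac and H3K4me3. A SMARCC1 peak of 3.04-fold in replicate 2 overlapped it. Each BRG1 library had a further FOXO3 peak that the other lacked: replicate 1 at 21829 bp from the start (3.71-fold) and replicate 2 at 3055 bp (3.61-fold), inside the H3K4me3 and H3K27ac of the promoter region.

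The other forkhead gene with BRG1 in both replicates was FOXJ3, at 3.55-fold and 3.86-fold (3.70 ± 0.22), 4604 and 4336 bp before its start. The peaks were chr1:42340379-42340618 and chr1:42340131-42340661. No histone mark was listed there in any library, and an NRF2 peak of replicate 1 (4.95-fold) overlapped both. NRF2 peaks of both replicates were found only in FOXN2. They overlapped at chr2:48344139-48344361 in replicate 1 (2.63-fold) and chr2:48344023-48344223 in replicate 2 (2.92-fold), with a further replicate 1 peak of 3.36-fold beside them. A BRG1 peak of replicate 2 (2.25-fold) covered the same place, and H3K27ac lay next to it. NRF2 was also listed in replicate 1 alone at FOXP1 (4.63-fold) and FOXK1 (3.28-fold). SMARCC1 was listed in 1 replicate at FOXK1 (3.79-fold), FOXN2 (3.16-fold), FOXO3 and FOXD3 (2.73-fold), and at no member in both. All fold enrichments of these 3 proteins at forkhead genes were below 5, and no BRG1, NRF2 or SMARCC1 peak of both replicates lay within 1000 bp of a forkhead start.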

How the data were processed

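Peak lists of 12 CUT&RUN libraries (6 targets, 2 replicates each) were used as the authors deposited them. Tools listed in the submitters' processing notes are MACS2 2.2.7.1, Picard 2.23.9, Bowtie2 2.4.1 and SAMtools 1.9, with the build GRCh38; settings, filters and the use of the IgG library are not given in the sources used here. The deposited lists give each peak a fold enrichment (a ratio over the local background), a −log10 p-value, a −log10 q-value and a score. No read counts are given, so depth is unknown and no interval could be computed; n = 2 limits the precision.

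Coordinates of coding genes and promoter sequences came from RefSeq GRCh38.p14. A gene had a peak where 1 bp or more of it overlapped the gene span plus 10 kb, and was called where both replicates had 1; the promoter was 1000 bp on each side of the listed start (34 of 45 members), or of both span ends for 11. The highest fold per library was kept, so the values of 2 replicates can come from peaks at different places. Mean ± SD is over 2 replicates. No p-value was computed, because all libraries share 1 condition. The same counts per target and per promoter class over 19974 coding genes give the background. Named were the 5 highest members per mark, all members with a BRG1, NRF2 or SMARCC1 peak, all with 1 promoter mark alone, and 12 members chosen by function. Members and gene lists were chosen with earlier results of these data known. Overlaps were computed in Python 3.11.15 with NumPy 2.4.6 and pandas 2.3.3, and counting was tested on simulated peaks. A few genes of these lists are not reported here by name.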

Additional observations from a re-analysis of the deposited data

How the results depend on the processing

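Of 118 counts recomputed under other settings, 97 stayed within 1.5 times the reported count. For H3K4me3, H3K27ac and the unmarked promoters this held under all settings run. H3K4me1 was found at 4 forkhead genes in place of 16, both with −log10 q of at least 1.3 and with −log10 p of at least 5. The BRG1 count of 2 became 1 within the gene span alone and with −log10 p of at least 5, and 0 under the q threshold. The count of 1 for NRF2 became 2 with 50 kb on each side, 4 with a peak in either replicate, and 0 with the q threshold, the p threshold or an equal number of strongest peaks per replicate; without 1 replicate it ran from 1 to 4. The SMARCC1 count of 0 became 2 with 50 kb and 4 with either replicate; without 1 replicate it was 2. Promoters with both marks fell to 10 with −log10 p of at least 5, and those with H3K4me3 alone numbered 11 with the q threshold. FOXS1, the 1 promoter with H3K27ac alone, was lost (0) with 500 bp, with either threshold, and with listed starts only, a setting chosen after seeing the data. FOXO1 and FOXN2 had both marks at 2500 bp, and FOXA1, FOXJ2, FOXO3, FOXQ1 lost H3K27ac under the q threshold. Stricter thresholds and single replicates change counts by their construction; the cause of the other changes was not tested. No paired analysis was possible because no groups were compared. Peak width and absence are limited by unknown depth.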
